A study of Mus musculus with 2 samples.

Results

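Genes that sense, carry and store cholesterol were compared between primary mouse fibro-adipogenic progenitors (FAPs) that had received platelet-rich plasma (PRP) and FAPs that had received vehicle. The set held 9 genes, taken by name from the 44291 genes with a value in both libraries, and all 9 had a level. They were *Srebf2*, *Scap*, *Insig1*, *Insig2*, *Mbtps1*, *Stard4*, *Npc1*, *Npc2* and *Soat1*. FAPs are mesenchymal cells of skeletal muscle that can become adipocytes. Both groups were wild-type primary cells in adipogenic induction medium, which held 20% FBS, insulin at 10 μg/ml, dexamethasone at 0.25 μM and IBMX at 0.5 mM, so the groups differed by label in PRP or vehicle alone. The study describes the treatment of this transcriptome as exosomes from the PRP of young donors, whereas the label says PRP. There was 1 library for each group, and every difference given here is one between 2 libraries with no replicate to set it against.

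Cells keep their cholesterol within narrow limits by feedback on the transcription factor SREBP-2. When sterol is plentiful, SREBP-2 stays in the endoplasmic reticulum, bound to its escort SCAP, which the INSIG proteins hold there. When sterol runs low, INSIG lets go, COPII vesicles carry the complex to the Golgi, and proteases release the active factor, which switches on genes for cholesterol synthesis and uptake. Cholesterol from lipoproteins arrives in lysosomes, leaves them through NPC2 and NPC1, is moved between membranes by carriers such as STARD4, and is stored as ester by SOAT1. Lipid-laden cells such as adipocytes hold much of their cholesterol at the surface of the lipid droplet and in the plasma membrane.

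The promoters of *Insig1* and *Srebf2* are shown because their products stand on opposite sides of this switch and both levels were lower in the PRP library. Each is the RefSeq window on GRCm38.p6 from 250 bases before to 50 bases after the start site, on the plus strand, at chr5:28071162-28071461 for *Insig1* and chr15:82147019-82147318 for *Srebf2*. Capitals mark the core of the sterol regulatory element (TCACCCCA), which is the kind of site that SREBP-2 binds, a CCAAT box on either strand, and an E-box, whose letters are CACGTG.
Insig1: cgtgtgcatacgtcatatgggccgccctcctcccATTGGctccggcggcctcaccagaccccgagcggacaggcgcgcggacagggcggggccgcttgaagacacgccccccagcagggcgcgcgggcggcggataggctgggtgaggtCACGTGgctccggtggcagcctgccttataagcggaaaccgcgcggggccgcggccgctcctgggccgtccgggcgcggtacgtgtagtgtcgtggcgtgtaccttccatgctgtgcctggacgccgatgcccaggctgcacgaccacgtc
Srebf2: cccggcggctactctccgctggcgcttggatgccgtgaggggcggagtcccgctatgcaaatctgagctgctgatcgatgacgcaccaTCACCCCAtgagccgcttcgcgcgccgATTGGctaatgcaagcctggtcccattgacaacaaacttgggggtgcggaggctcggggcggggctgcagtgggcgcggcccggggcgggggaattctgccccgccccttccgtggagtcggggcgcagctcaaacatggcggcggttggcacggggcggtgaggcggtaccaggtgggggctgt

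A promoter window was at hand for 7 of the 9 genes. *Stard4* and *Npc1* had none and were not searched. *Insig2* and *Scap* had more than 1 window each, which gives them more room for a match. The 8-letter core TCACCCCA, searched on both strands, was found in 1 of them, *Srebf2*. It starts there at position -162 from the RefSeq start site and is followed by a CCAAT box at position -135. The gene coordinates of *Srebf2* and *Insig1* given below are from GENCODE M21 and begin upstream of these RefSeq start sites. That core stood in 1.56% of all 32851 promoter windows and in 1.84% of the 8655 tested genes with a window. The longer consensus TCACNCCAC was in none of the 7 and in 1.42% of the tested genes. The E-box was in *Insig1* (position -101) and *Scap*, against 12.1% of tested genes. A CCAAT box was in 5 of the 7 (*Srebf2*, *Insig1*, *Insig2*, *Npc2* and *Soat1*), against 43.0%, and the GC box GGGCGG was in all 7, against 69.2%. These are matches of letters in a window.

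The libraries held 40120843 (PRP) and 34139741 (control) reads assigned to genes, and genes of the mitochondrial genome took 2.06% and 3.70% of the summed FPKM. Of 10 FAP markers, 8 were tested and all 8 were lower with PRP (median -0.46), where 6586 of all 13401 tested genes were lower. They ranged from -1.37 for *Dpt* (18.8 against 50.2 FPKM), the 1 marker of the 8 past 2-fold, to -0.13. The 8 included *Pdgfra* (19.8 against 28.0 FPKM) and *Ly6a* (59.9 against 66.4 FPKM), while *Lum* and *Pi16* were below 0.1 FPKM in both. Of 10 adipocyte markers, 7 were tested with a median of 0.06. Their counting intervals lay above 1 for 2 (*Pparg*, ratio 1.33, and *Fabp4*, 1.21), below 1 for 1 (*Lpl*, 0.810) and included 1 for 4. All 10 summed to 141 FPKM with PRP and 147 FPKM with vehicle. The summed level of 10 macrophage markers was 11.4 and 11.3 FPKM, of 10 platelet and erythroid markers 1.78 and 1.83 FPKM, of 10 endothelial markers 10.1 and 6.05 FPKM, and of 9 myogenic markers 29.2 and 17.3 FPKM. In summed FPKM, the endothelial and myogenic differences rested on few genes. *Tnnc1*, a troponin gene, had 21.2 FPKM with PRP and 8.75 FPKM with vehicle, more than the whole myogenic difference, while the intervals of *Des* (ratio 0.859) and *Myl1* (0.945) included 1. *Kdr* (ratio 2.82) made up most of the endothelial difference, and *Tek*, the other tested endothelial marker, was also higher (1.33, interval 1.14 to 1.55). Below the filter, *Pecam1*, *Vwf* and *Esam* had intervals above 1 at no more than 0.188 FPKM. Those of *Cdh5*, *Emcn*, *Tie1* and *Egfl7* included 1. Of the myogenic markers below the filter, *Myh3* and *Chrna1* had intervals above 1 at no more than 0.280 FPKM, and those of *Myod1* and *Cdh15* included 1. In the macrophage sum *Cd68* (ratio 1.98) and *Lyz2* (0.648) went opposite ways. *Ppbp* and *Gp9* (platelet), *Cldn5* (endothelial) and *Pax7* and *Myog* (myogenic) were listed at 0 in both. The part of the lower FAP markers, the higher endothelial and myogenic sums and the mitochondrial share in the differences of the 9 genes was not tested. In bulk RNA, fewer cells of a type and less RNA per cell cannot be told apart.

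The 9 genes differed in direction and size. *Insig1* and the sterol carrier *Stard4* were lowest in the PRP library relative to control, at ratios of 0.534 and 0.496. *Srebf2* and the SREBP protease *Mbtps1* were lower by less, at 0.796 and 0.777. The escort *Scap*, the second retention gene *Insig2* and the lysosomal exporters *Npc1* and *Npc2* had counting intervals that included no change, and the esterification enzyme *Soat1* was higher, at a ratio of 1.25. The plot of FPKM by library shows all 9 genes. FPKM is a read count scaled to the exon length of the gene and to the size of the library.

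**Figure D1:**
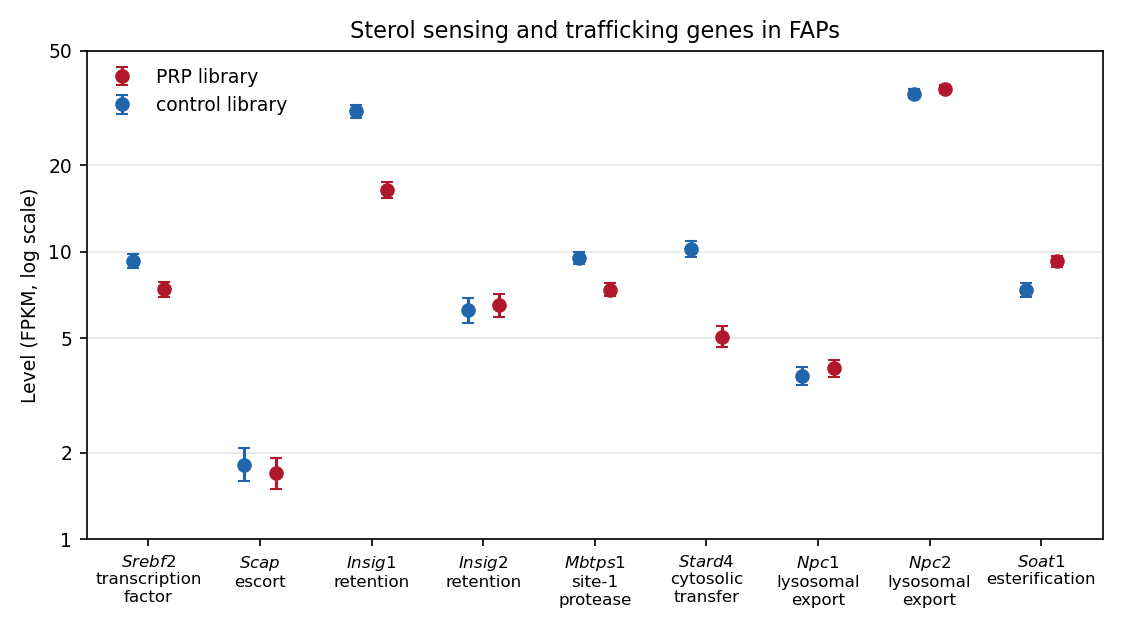
Level of each of the 9 genes in FPKM on a log axis, with the control library in blue and the PRP library in red. Bars are exact 95% Poisson intervals of the level and cover counting error only. Insig1 (16.4 against 30.8 FPKM) and Stard4 (5.07 against 10.2 FPKM) stand furthest apart, and the bars of Scap, Insig2, Npc1 and Npc2 overlap.

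Among the genes of the SREBP-2 switch, *Insig1* differed most. It encodes the sterol-dependent retention protein that is itself a target of SREBP-2, so that its mRNA is commonly read as a gauge of SREBP activity. *Insig1* (ENSMUSG00000045294, chromosome 5, 28071363 to 28078662, plus strand) had 30.8 FPKM in the control library and 16.4 FPKM in the PRP library, from 3250 and 2040 reads. The ratio of PRP to control was 0.534 (95% interval 0.493 to 0.578). On the scale used for calls, log2(FPKM + 1), the difference was -0.87, lower than in all but 1.51% of the tested genes. The interval is an exact Clopper-Pearson interval on fragments and covers counting error only.

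*Insig2*, which encodes the related retention protein, did not share this difference. *Insig2* (ENSMUSG00000003721, chromosome 1, 121304353 to 121332589, minus strand) measured 6.26 FPKM in the control library and 6.52 FPKM in the PRP library, a ratio of 1.04 (interval 0.906 to 1.20). The INSIG mRNA therefore had a different make-up in the libraries. The *Insig1* level was 4.92 times the *Insig2* level in the control library and 2.52 times in the PRP library. *Insig1* made up 83.1% of the summed INSIG level in the control library and 71.6% in the PRP library, and the sum went from 37.0 to 23.0 FPKM.

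*Srebf2*, which encodes SREBP-2, was lower to a smaller degree. *Srebf2* (ENSMUSG00000022463, chromosome 15, 82147181 to 82205379, plus strand) had 9.30 FPKM in the control library and 7.40 FPKM in the PRP library. The ratio was 0.796 (interval 0.732 to 0.867), and the difference on the log2(FPKM + 1) scale was -0.29. Its escort *Scap* (ENSMUSG00000032485, chromosome 9, 110333288 to 110384950, plus strand) had the lowest level of the set, at 1.82 and 1.70 FPKM from 463 and 508 reads. The *Scap* ratio of 0.934 had an interval of 0.778 to 1.12, so a difference was not detectable at this depth. Of its exon length, 13.2% is also covered by a gene on the other strand, and the strand setting of the authors' counting is not given in the sources used here. The summed INSIG level was 20.3 times the *Scap* level in the control library and 13.5 times in the PRP library.

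*Mbtps1* encodes the site-1 protease, which makes the first cut in SREBP-2 and also processes other membrane-bound factors. *Mbtps1* (ENSMUSG00000031835, chromosome 8, 119508156 to 119558735, minus strand) measured 9.50 FPKM in the control library and 7.38 FPKM in the PRP library. The ratio was 0.777 (interval 0.725 to 0.833), close to that of *Srebf2*, and the intervals of these ratios overlapped. The difference on the log2(FPKM + 1) scale was -0.33.

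*Stard4* had the lowest ratio of the set. It encodes a soluble START-domain protein that moves cholesterol between the plasma membrane and internal membranes and is, like *Insig1*, a known SREBP-2 target. *Stard4* (ENSMUSG00000024378, chromosome 18, 33199355 to 33213862, minus strand) measured 10.2 FPKM in the control library and 5.07 FPKM in the PRP library, from 1949 and 1137 reads. Its ratio was 0.496 (interval 0.447 to 0.551), past 2-fold on the plain FPKM scale. On the log2(FPKM + 1) scale, where the pseudocount of 1 shrinks differences, the value was -0.89 and fell short of 2-fold. Only 1.36% of the tested genes had a lower value. The *Stard4* and *Insig1* intervals overlapped, so these ratios were not told apart at this depth.

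The lysosomal exporters had intervals that included no change. NPC2 is a soluble lysosomal protein that takes up free cholesterol and hands it to the membrane protein NPC1. *Npc2* (ENSMUSG00000021242, chromosome 12, 84754562 to 84773152, minus strand) measured the highest level of the set in both libraries, 35.5 FPKM in the control library and 36.8 FPKM in the PRP library. Its ratio of 1.04 rested on 6583 and 8031 reads and had an interval of 0.991 to 1.09, the narrowest of the set on a log scale. *Npc1* (ENSMUSG00000024413, chromosome 18, 12189692 to 12236400, minus strand) measured 3.71 and 3.93 FPKM, a ratio of 1.06 (interval 0.961 to 1.17). Neighbouring genes on the other strand cover 5.31% of its exon length. The *Npc2* level was 9.57 times the *Npc1* level in the control library and 9.36 times in the PRP library.

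*Soat1* was the member that was higher in the PRP library by more than counting error. It encodes the enzyme of the endoplasmic reticulum that joins cholesterol to a fatty acid for storage in lipid droplets. *Soat1* (ENSMUSG00000026600, chromosome 1, 156424525 to 156474331, minus strand) measured 7.39 FPKM in the control library and 9.26 FPKM in the PRP library, from 2469 and 3638 reads. The ratio was 1.25 (interval 1.17 to 1.35) and the difference on the log2(FPKM + 1) scale was 0.29, with 81.8% of the tested genes below it. The *Soat1* level was 0.723 times the *Stard4* level in the control library and 1.83 times in the PRP library.

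**Figure D2:**
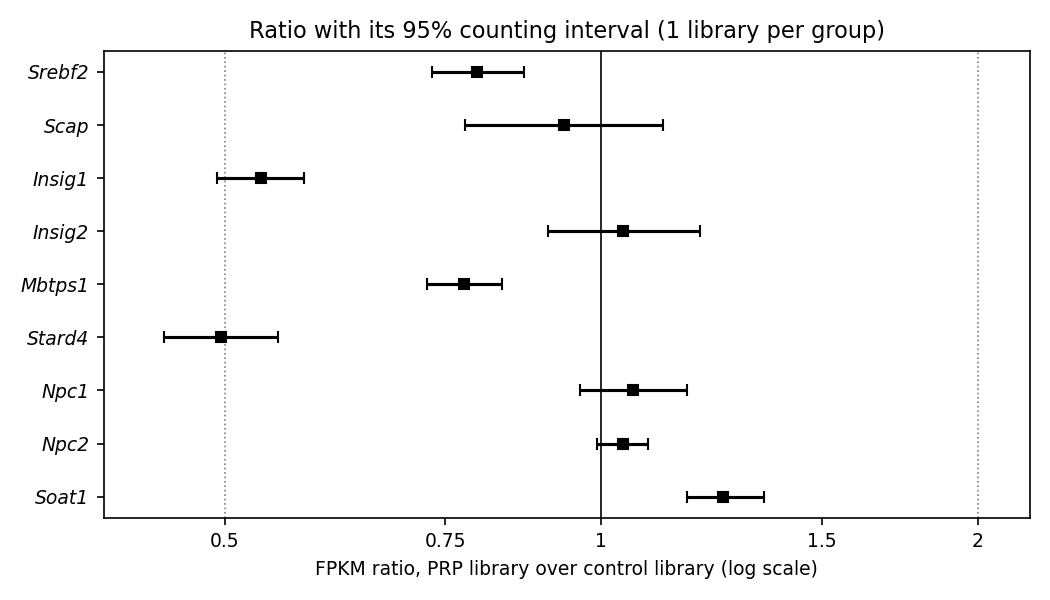
Ratio of PRP to control FPKM for each gene on a log axis, with exact 95% Clopper-Pearson intervals that cover counting error only. The solid line marks no change and the dotted lines mark 2-fold. Insig1 (0.534) and Stard4 (0.496) lie near the lower dotted line, and Soat1 (1.25) lies to the right of the solid line with its whole interval.

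The order of the levels differed between the libraries. In the control library it ran from *Npc2* and *Insig1* through *Stard4*, *Mbtps1*, *Srebf2*, *Soat1*, *Insig2* and *Npc1* to *Scap*. The intervals of *Stard4* and *Mbtps1* overlapped, as did those of *Mbtps1* and *Srebf2*. In the PRP library *Soat1* came directly after *Insig1*, and *Stard4* stood between *Insig2* and *Npc1*, and the intervals of *Srebf2* and *Mbtps1* and of *Mbtps1* and *Insig2* overlapped. The other neighbours in each order had intervals that did not overlap. These intervals cover counting error only and not any error in the exon length that scales each gene, so the order between genes is less certain than they show. *Npc2* and *Insig1* led both orders, and *Npc1* and *Scap* closed both.

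All 9 genes passed the filter of a mean FPKM of at least 1, as did 13401 genes in all. None of the 9 differed at least 2-fold on the log2(FPKM + 1) scale in either direction, where 2.00% of the tested genes were at least 2-fold higher and 0.828% at least 2-fold lower. At 1.5-fold, 2 of the 9 were lower (*Insig1* and *Stard4*) and 0 were higher, against 4.57% and 6.15% of the tested genes. The counting interval lay below 1 for 4 of the 9 genes and above 1 for 1. Among the 12369 tested genes with an interval, 26.1% lay below 1 and 26.1% above 1, so the 5 of 9 genes with an interval clear of 1 are near the share among all genes. The median difference of the 9 genes was -0.06, with 5 lower and 4 higher, and that of all tested genes was 0.01, with 6586 lower and 6815 higher.

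The SREBP-2 target enzymes of cholesterol synthesis serve as the reference for the switch. Of 20 listed enzymes, from the mevalonate pathway to the last steps of cholesterol synthesis, 18 were tested and all 18 were lower with PRP (median -1.03). They ranged from -1.82 for *Idi1* to -0.26 for *Ebp*, and 10 of them were at least 2-fold lower. Apart from *Ebp*, an isomerase of the late steps, the other 17 lay at or below -0.78. *Insig1* and *Stard4* thus lay inside the range of these 17 enzymes, and the remaining 7 genes, from -0.33 to 0.29, lay above it. This split depends on setting *Ebp* apart. The range of all 18 enzymes, -1.82 to -0.26, also takes in *Mbtps1* (-0.33) and *Srebf2* (-0.29).

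**Figure D3:**
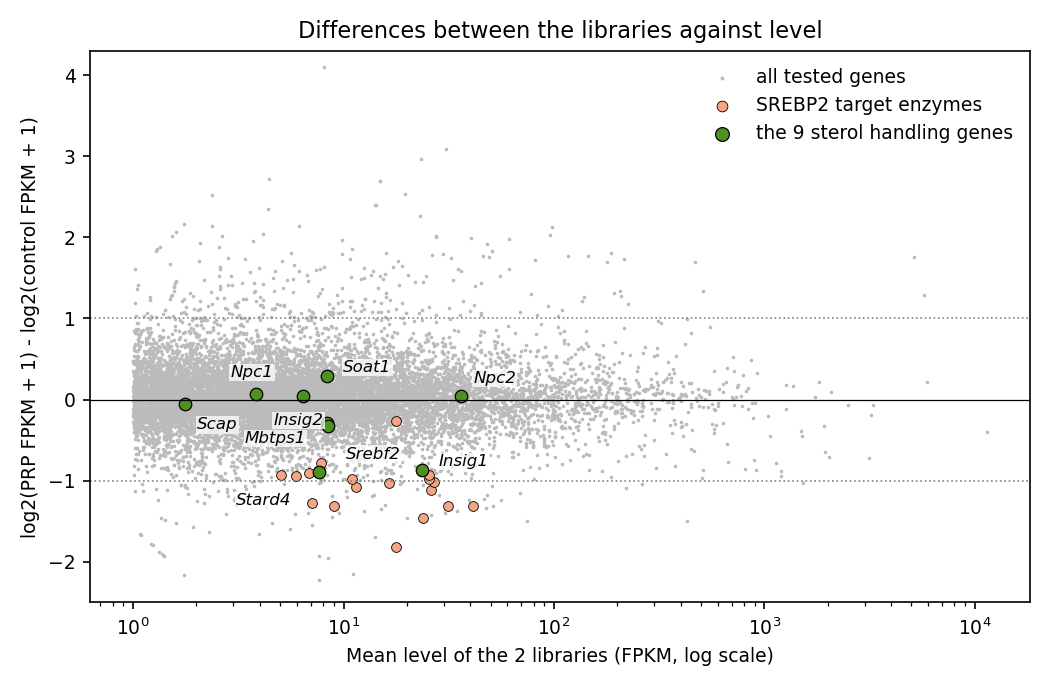
Difference between the libraries on the log2(FPKM + 1) scale against the mean FPKM of both on a log axis, for the 13401 tested genes (grey), the 18 tested SREBP2 target enzymes (orange) and the 9 genes (green). Dotted lines mark 2-fold. Insig1 and Stard4 lie among the enzymes at -0.87 and -0.89, while Npc1, Npc2, Insig2 and Scap lie near 0.

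The other genes of these routes were examined as lists. Of 71 listed genes in 5 lists, 58 were tested, 37 of them lower and 21 higher, with a median of -0.15. Of all 13401 tested genes, 6586 were lower and 6815 higher. At 1.5-fold, 6 of the 58 were lower and 3 higher, where 4.57% and 6.15% of all tested genes were. For SREBP regulation, 19 of 20 genes were tested, with 11 lower, 8 higher and a median of -0.11. *Sec23a*, which encodes an inner coat protein of COPII vesicles, was the one gene of the 5 lists past 2-fold, with 14.9 FPKM in the control library and 5.93 FPKM in the PRP library (ratio 0.398, interval 0.360 to 0.440). *Srebf1*, which encodes the SREBP that favours fatty acid genes, had 5.08 and 2.76 FPKM (ratio 0.544, interval 0.471 to 0.629). In the control library *Srebf2* was 1.83 times as high as *Srebf1*, and in the PRP library 2.68 times.

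*Spring1* went the other way. It encodes a Golgi partner that the site-1 protease needs for SREBP cleavage. *Spring1* had 6.29 FPKM in the control library and 11.1 FPKM in the PRP library, from 1214 and 2509 reads, a ratio of 1.76 (interval 1.59 to 1.94). *Mbtps2*, the gene of the site-2 protease that makes the second cut, was below the filter at 0.925 and 0.994 FPKM, and its interval of 0.869 to 1.33 included no change.

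For lipoprotein uptake, all 13 listed genes were tested, 11 of them lower and 2 higher, with a median of -0.22 and 3 genes at least 1.5-fold lower. *Mylip*, which encodes a ubiquitin ligase that marks lipoprotein receptors for breakdown and is induced by sterol through LXR, had 14.7 and 7.63 FPKM (ratio 0.519, interval 0.463 to 0.582). *Lrp1*, a large endocytic receptor, had 90.9 and 62.8 FPKM (ratio 0.692, interval 0.679 to 0.704). The genes higher in the PRP library were *Vldlr* (ratio 1.16, interval 1.03 to 1.32) and *Cd36* (1.03, interval 0.845 to 1.26).

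In the lysosome list, 6 of 10 genes were tested, 4 lower and 2 higher, with a median of -0.20. *Lipa*, the gene of the lysosomal acid lipase that frees cholesterol from lipoprotein esters, was at 3.86 FPKM with vehicle and 6.35 FPKM with PRP (1.64, interval 1.46 to 1.85). *Tmem97*, whose product binds NPC1 and which responds to SREBP-2, was lower, at 3.92 against 5.82 FPKM (0.673, interval 0.518 to 0.873). *Lamp2*, a lysosomal membrane protein gene, was lower as well (0.765, interval 0.723 to 0.809).

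Carriers outside vesicles went in both directions. Of 23 listed genes 17 were tested, 10 lower and 7 higher, with a median of -0.11. *Scp2*, a lipid carrier of peroxisomes and cytosol, had 82.7 and 51.6 FPKM (ratio 0.624, interval 0.598 to 0.652). *Osbp*, which trades cholesterol at contacts between endoplasmic reticulum and Golgi, had 17.0 and 11.3 FPKM (0.666, interval 0.613 to 0.723). *Cav1*, the caveolar protein gene, was at 8.90 FPKM with vehicle and 13.5 FPKM with PRP (1.52, interval 1.36 to 1.70).

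Of the 5 genes listed for ester formation and breakdown, 3 were tested. *Soat2*, the second sterol acyltransferase gene, stood at 0.503 FPKM with vehicle and 1.67 FPKM with PRP (3.31, interval 1.98 to 5.81), on 38 and 148 reads. Its mean of 1.08 FPKM passed the filter only through its level in the PRP library, so no median is read from these 3 genes. The *Soat1* level was 14.7 times the *Soat2* level in the control library and 5.56 times in the PRP library. *Nceh1*, which encodes a hydrolase of cholesterol esters, was higher (1.21, interval 1.04 to 1.40). *Lipe*, the gene of hormone-sensitive lipase, was lower (0.752, interval 0.611 to 0.924), and 15.6% of its exon length is shared with a gene on the other strand.

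**Figure D4:**
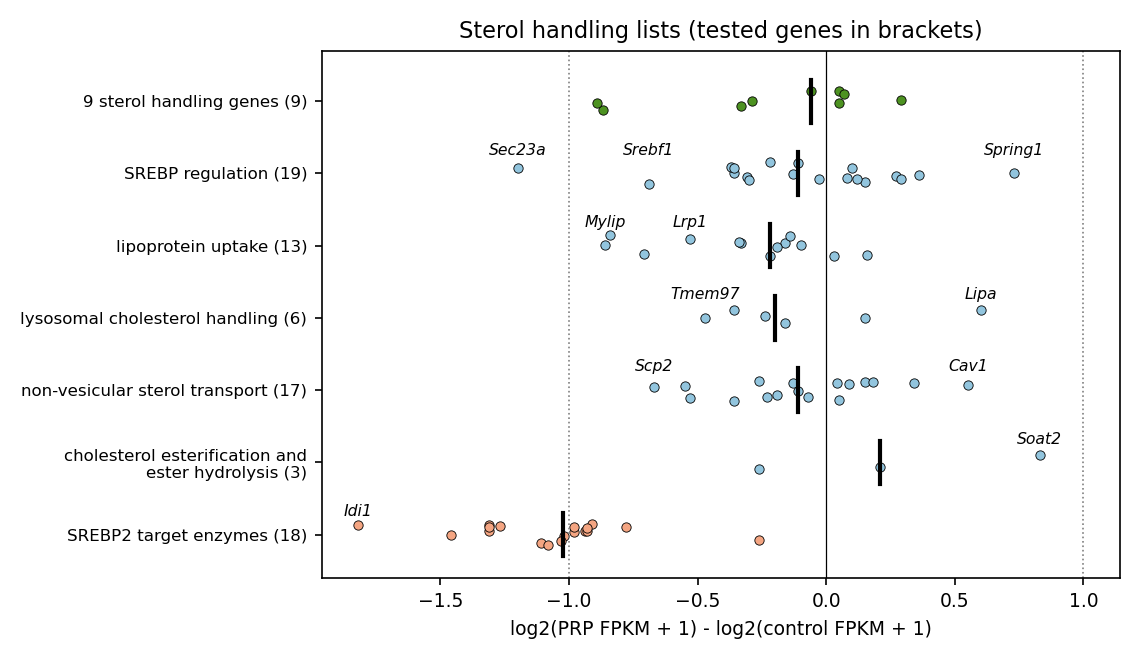
Difference between the libraries on the log2(FPKM + 1) scale for the tested genes of each list, 1 point per gene with the list's median as a black bar. Dotted lines mark 2-fold and points are spread vertically only to separate them. The SREBP2 target enzymes have a median of -1.03 and the 9 genes one of -0.06. The bar of the ester list rests on 3 genes, of which Soat2 passed the filter only through the PRP library.

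The study names let-7f-5p and miR-16-5p as cargo of the exosomes, so the longest GENCODE M21 3'UTR of each of the 9 genes was searched for their 7-base seed matches. The mature mouse sequences from RefSeq (GRCm38.p6) are shown with the seed, bases 2 to 8, in capitals.
let-7f-5p: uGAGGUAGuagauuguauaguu
miR-16-5p: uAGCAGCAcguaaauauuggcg
The let-7 match CTACCTC was found once each in *Srebf2*, *Npc2* and *Soat1*, and the miR-16 match TGCTGCT once, in *Soat1*. They are shown as 29 bases of the mRNA with the match in capitals.
Srebf2, let-7: caccctcactcCTACCTCccatagaagtg
Npc2, let-7: gcctcctgcttCTACCTCaagtgctgaga
Soat1, let-7: agtctggattgCTACCTCttaaaaactgc
Soat1, miR-16: ctggagagaatTGCTGCTgttgttatgta
Of the 10292 tested genes with a 3'UTR, 9.86% held the let-7 match and 24.6% the miR-16 match. These shares take no account of 3'UTR length, which ran from 149 bases (*Scap*) to 6534 bases (*Soat1*) among the 9 genes. A longer 3'UTR has more room for a match, so no excess is read from these counts. The 3 genes with a let-7 match had ratios of 0.796 (*Srebf2*), 1.04 (*Npc2*) and 1.25 (*Soat1*). *Insig1* and *Stard4*, the genes with the lowest ratios, held neither match.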

How the data were processed

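RNA-seq of 1 PRP-treated and 1 vehicle-treated culture of mouse FAPs was used. Per the labels, a stranded mRNA kit turned 2 μg of total RNA into each library. Reads were trimmed with fastp 0.23.4, mapped to mm10 with STAR 2.5.3a (versions from the submitters' processing notes) and counted per gene with featureCounts by the authors, who deposited FPKM. How FPKM was computed, the annotation, the strand setting and duplicate removal are not given in the sources used here.

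The 9 genes and the lists were chosen with earlier results of these data known, and the lists come from general knowledge. A gene was tested if the mean FPKM of the libraries was at least 1. Differences are log2(PRP FPKM + 1) minus log2(control FPKM + 1), which understates the change of low genes. With 1 library per group no test was run, and no p-value is given. Named are the 9 genes and, of each list, the 3 tested genes with the largest difference and any past 2-fold, while the enzymes are given by counts, median and range, with *Idi1* and *Ebp* named as the ends of the range. Of the uptake list, 2 genes that this rule names are not reported here by name, although they are counted. *Mbtps2*, *Vldlr*, *Cd36*, *Lrp1* and the cell type markers were named after their values were seen.

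Whole reads were recovered from FPKM and GENCODE M21 exon lengths (GRCm38, which is mm10). Of 28160 genes above 0 with a length, 93.8% came out whole in both libraries within 0.001 reads, all 9 genes among them. Because even read numbers were in excess (79.3% and 80.3% of genes with up to 8 reads), reads were divided by 2 into fragments for exact Clopper-Pearson (ratio) and Poisson (level) intervals. These cover counting error only and compare libraries, not treatments. Recovery and intervals were tried on simulated data that held counting error only and were scaled by the same exon lengths. That check covers the arithmetic and not how real libraries vary. Seed matches were sought in the longest 3'UTR of each gene. Python 3.11.15 with NumPy 2.4.6, pandas 2.3.3, SciPy 1.17.1 and matplotlib 3.10.9 was used. The alternatives were pseudocounts of 0.1 and 5, no filter or one at a mean FPKM of 5, a common sum of FPKM with and without mitochondrial and the 50 most abundant genes, centring on the median gene, a 1.5-fold threshold, undivided reads, and removal of genes with at least 50% of their exon length shared.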

Additional observations from a re-analysis of the deposited data

How the results depend on the processing

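All 9 genes kept their direction under both pseudocounts, both rescalings and centring. A pseudocount of 5 gave the values nearest to 0, -0.60 for *Stard4*, -0.74 for *Insig1*, -0.23 for *Mbtps1* and 0.20 for *Soat1*. No setting at 2-fold called any of the 9, and the 1.5-fold threshold called 2, both lower. With undivided reads, 2 intervals lay above 1 in place of 1, since halving widens them. With the filter raised to 5 FPKM the median of the 9 genes was -0.29, because *Scap* and *Npc1* were then left out. The median of the ester list was -0.01 without a filter, which adds 2 genes at low levels, against 0.21. The medians of all tested genes moved by less than 0.1 under every rescaling.

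For all genes at 2-fold, 268 were higher and 111 lower. There were 471 and 268 at a pseudocount of 0.1, 84 and 29 at a pseudocount of 5, 154 and 56 with the filter at 5 FPKM, and 824 and 612 at 1.5-fold. A common sum gave 380 and 216, and 401 and 240 without mitochondrial and top genes. The FPKM sums were 343024 (PRP) and 339238 (control), so scaling to 1000000 raised the values of both libraries while the pseudocount stayed at 1. The counts under a common sum therefore also carry the effect of a relatively smaller pseudocount. No paired analysis was possible because there was only 1 library a group. Depth limits *Scap* (463 and 508 reads) and *Insig2* (742 and 908) most, whose ratios have intervals of 0.778 to 1.12 and 0.906 to 1.20.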
